A study of Drosophila melanogaster with 72 samples.

Results

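Transcripts of 10 antimicrobial peptide genes that answer to the immune deficiency (Imd) pathway were followed in heads of Drosophila melanogaster that expressed mutant huntingtin (mHTT), whose expanded polyglutamine tract causes Huntington's disease. The genes were taken by symbol, as 10 of the 13557 genes in the deposited table: 4 attacins (AttA, AttB, AttC and AttD), 2 diptericins (Dpt, now named DptA, and DptB), drosocin (Dro) and 3 cecropins (CecA1, CecA2 and CecC). All 10 passed the filter on low values in every fit. Transcripts were measured by poly(A) RNA sequencing in 72 libraries, each from 50 heads, and the series asked how expression changed over early, middle and late disease. The 4 models were glial N-terminal (repo-GAL4/+; UAS-HTTNT231Q128/+, at 5, 7 and 8 days), glial full-length (repo-GAL4/+; UAS-HTTFLQ200/+, at 18, 20 and 22 days), neuronal N-terminal (elav-GAL4/+; UAS-HTTNT231Q128/+, at 7, 9 and 11 days) and neuronal full-length (elav-GAL4/+; UAS-HTTFLQ200/+, at 18, 20 and 22 days). Each had its own age-matched controls, which carried the driver (repo-GAL4/+ or elav-GAL4/+) and no huntingtin insert, with 3 libraries per arm and age. The repo driver acts in glia and the elav driver in neurons. Because the controls had no insert, the effect of mHTT cannot be told apart from that of carrying an insert. The neuronal full-length model, controls included, was raised at 29 °C, while 28 °C was used for the other 3 models.

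The Imd pathway is one of the 2 main branches of the fly's systemic immune response. Peptidoglycan of the type found in Gram-negative bacteria binds the surface receptor PGRP-LC or the intracellular receptor PGRP-LE. The signal passes through the adaptors imd and Fadd, the caspase Dredd, the kinase Tak1 and the IKK complex (ird5 and key) to the NF-kappaB factor Relish, encoded by Rel. Relish then switches on genes of secreted peptides, chiefly in fat body, and also in epithelia, in haemocytes and in glia of the head. Attacins and diptericins are glycine-rich peptides that act on Gram-negative bacteria, drosocin is a proline-rich peptide that blocks bacterial translation, and cecropins are short helical peptides that lyse bacterial membranes. AttD differs from the other attacins in lacking a signal for secretion. Enzymes such as PGRP-LB and PGRP-SC2, which degrade peptidoglycan, and the intracellular protein pirk restrain the response.

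Several of the genes lie side by side in the Ensembl BDGP6 annotation. Dro, AttA and AttB follow each other, Dpt and DptB are neighbours, CecA1 and CecA2 flank the pseudogene Cec-Psi1, and CecC follows CecB. AttA and AttB are near-identical, as are CecA1 and CecA2, so reads from either member of a pair could be assigned to the other, and their separate levels are uncertain. Per kb of transcript (lengths from the Ensembl BDGP6 annotation), the median deposited signal over the 72 libraries was highest for DptB (8433) and AttC (5836). It was lowest for CecC (474) and AttD (110.1). Per-kb medians of the other 6 genes lay between 783 (CecA1) and 3047 (Dpt). AttD was therefore the scarcest transcript of the set, as well as the one without a secretion signal.

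All libraries had an upper quartile of 1000 in signal, and the depth estimated from the smallest values was 34.9 M to 46.7 M reads (M, 1e6). Among controls of the elav driver at day 11, library 2 stood apart, with 3223 genes at 0 (1073 to 1782 in the other 71 libraries), and it alone carried the label prefix V31614. Library 1 of neuronal full-length mHTT heads at day 22 was next in distance from its group. None of the 6 photoreceptor, 10 neuronal and 10 glial markers was at 0 in all libraries of a group. The lowest neuronal sum was 32867.5 in neuronal full-length mHTT heads at day 22 (median 69124) and 25684 in neuronal controls at day 11 (median 77374). Photoreceptor sums were 801169 to 998724 in neuronal N-terminal mHTT heads and 1220510 to 1565070 in controls. In glial N-terminal heads they were 1364300 to 1928430 with mHTT and 1037090 to 1219920 in controls. Their part was not tested. Digestive enzymes of the gut were low in most libraries but summed to 90682 in a glial full-length control library at day 22 and 111415 in a neuronal full-length mHTT library at day 22. They also reached 44006 in library 2 of neuronal N-terminal mHTT heads at day 9, 45367 and 12802 in neuronal controls at day 22, and 8806 in a glial N-terminal mHTT library at day 8. Values without single libraries are given where they change a call.

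The peptide genes spanned a wide range. Dpt ran between 42.6 and 68949 (deposited signal), a ratio of 1620, and AttC, the narrowest, covered a ratio of 66.0. Averaged over the 10 genes on the log2 scale, the highest groups were the glial controls at day 22 (12.66 ± 1.18), day 18 (12.08 ± 0.21) and day 20 (11.47 ± 0.60; SD, n = 3 each). Next came glial N-terminal mHTT heads at day 7 (11.29 ± 0.99) and glial full-length mHTT heads at day 18 (10.79 ± 0.50). The lowest groups were the glial controls at day 5 (7.31 ± 0.59) and neuronal N-terminal mHTT heads at day 7 (7.46 ± 1.15). All 23 neighbouring pairs in the order of the 24 groups overlapped between libraries, so the order of neighbouring groups is uncertain. Controls of the glial driver thus held both ends of the order, at their oldest and youngest ages.

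**Figure D1:**
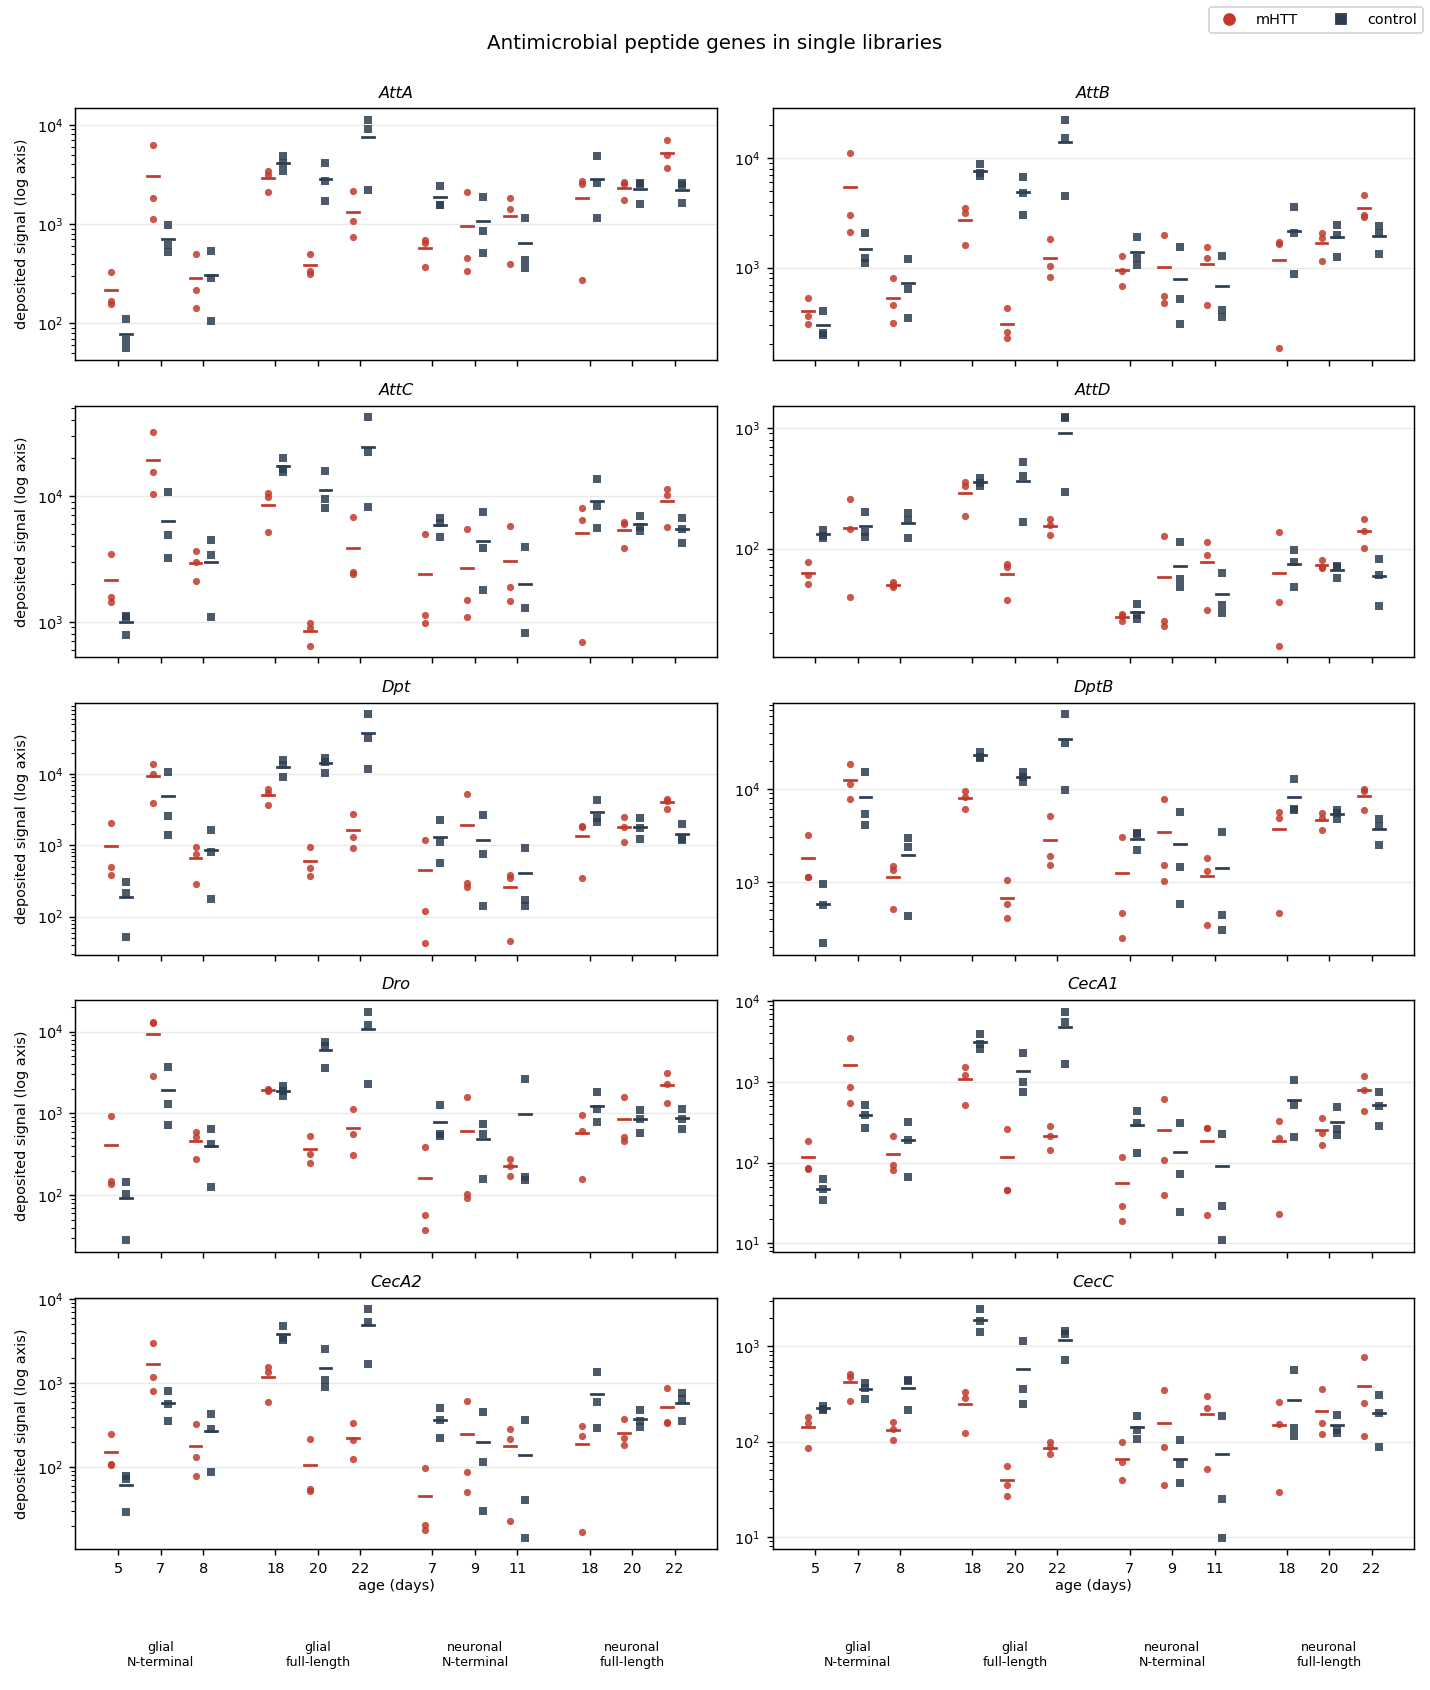
Deposited signal (log axis) of each peptide gene in every library, by model and age in days. Points are single libraries (circles mHTT, squares control) and bars are group means of 3. In the glial full-length model at days 20 and 22 all mHTT libraries lie below all controls for every gene, with Dpt at 370 to 2778 in mHTT heads and 10453 to 68949 in controls.

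In heads with full-length mHTT in glia, all 10 peptide genes were lower than in age-matched controls. On the log2 scale, the mean of the 10 genes in mHTT heads was 10.79, 7.73 and 9.22 at days 18, 20 and 22. Their controls, at 12.08, 11.47 and 12.66, were the highest groups of the series. Neuronal driver controls of these ages, kept at 29 °C, were at 10.18, 9.73 and 9.77. The part of the high control level in the changes was not tested. Averaged over the 3 ages, 10 of 10 were called lower in the limma fit (adjusted p under 0.05), against 25.1% of the 10421 genes tested. Changes ran between -1.70 (AttD) and -3.44 (CecC) on the log2(signal + 1) scale, with a median of -3.04 over the peptide genes and -0.04 over all genes tested. The medians at days 18, 20 and 22 were -1.43, -3.92 and -3.57. In whole heads, fewer cells of a type and less RNA per cell cannot be told apart, and nothing in the labels states that the 3 libraries of a group came from separate cultures, so p-values measure the spread between these samples.

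Among the attacins, AttC, the most abundant, had signals of 643, 898 and 970.3 in the mHTT libraries, against 8101, 15768 and 9519 in the controls at day 20. Every mHTT library was below every control library by a wide margin. AttC changed by -3.69 (SE 0.50, adjusted p = 5.22e-05) at this age. At day 22 its signals were 2385, 2482 and 6813 in the mHTT libraries, against 22427, 42433 and 8195 in the controls, where the third mHTT library came close to the third control library. The change at day 22 was -2.53 (SE 0.50, adjusted p = 0.00102). AttB was lower at each age, by -1.54 on day 18, -3.98 on day 20 and -3.32 on day 22 (log2 change). AttA changed less, by -0.54, -2.82 and -2.35, and was not called at day 18 (adjusted p = 0.539).

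AttD, the attacin without a secretion signal, had signals of 353, 328 and 188 in the mHTT libraries, against 332, 348 and 385 in the controls at day 18. The arms overlapped there. At day 20 they were 70.7, 37.9 and 75.1 in the mHTT libraries, against 402, 522 and 168 in the controls, and at day 22 156, 131 and 175 in the mHTT libraries, against 1226, 1209.6 and 294 in the controls, with no overlap at either age. Averaged over the ages, AttD fell by 1.70, a 3.26-fold lower signal (adjusted p = 0.000112).

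Both diptericins were among the genes with the largest falls. Dpt had signals of 5502, 6102 and 3678 in the mHTT libraries, against 15702, 13410.4 and 9198 in the controls at day 18. At day 20 they were 369.8, 485 and 949.8 in the mHTT libraries, against 14998, 17079 and 10453 in the controls. At day 22 they were 912, 1316 and 2778 in the mHTT libraries, against 32474, 68949 and 11666 in the controls. The arms did not overlap at any age, and the highest single Dpt value of the series was in a control library at day 22. Averaged over all ages, Dpt was 10.8-fold lower (-3.43, SE 0.30, adjusted p = 1.41e-07). DptB was 8.77-fold lower (-3.13, SE 0.31, adjusted p = 4.29e-07), also with no overlap of the arms at any age.

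Drosocin fell at the later 2 ages. At day 18 Dro had signals of 1995, 1854 and 1915 in the mHTT libraries, against 1875, 2191 and 1630.3 in the controls. The arms were interleaved, and the change was 0.03 (95% interval -1.21 to 1.26). At day 20 its signals were 318, 249 and 527 in the mHTT libraries, against 7481, 6647 and 3600.1 in the controls, and at day 22 306, 562 and 1128 in the mHTT libraries, against 12124, 17476 and 2314 in the controls. Both later ages were separated, with changes of -4.02 and -3.76 (adjusted p = 0.000106 and 0.000124). Dro was the one peptide gene whose change differed between the 3 ages (limma F test, adjusted p = 0.0384, against 0.864% of genes tested), with Dpt next (adjusted p = 0.0626). That call was kept in only some fits without 1 library, in which 0 to 7 peptide genes were called. It was lost in 13 of the 18, namely without any of the mHTT libraries at days 18 or 20, the first 2 mHTT libraries at day 22, any control library at day 18 or the first 2 controls at day 20 (0 called in each). Without the second or the third control library at day 22, 2 and 7 peptide genes were called. Unadjusted, 9 of the 10 genes had p under 0.05 in this test, all but CecC. The share of all genes under that unadjusted limit was not taken.

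CecC, the cecropin otherwise best known from pupae, was lower at every age, including the first. Its signals were 284, 329 and 123 in the mHTT libraries, against 2453, 1846 and 1421 in the controls at day 18. At day 20 they were 27.1, 35.3 and 55.2 in the mHTT libraries, against 354, 1141 and 249 in the controls, and at day 22 73.7, 86.7 and 99.1 in the mHTT libraries, against 1358, 1447 and 721 in the controls. No mHTT library reached a control library of its age. Changes at the 3 ages were -3.04, -3.60 and -3.69 (adjusted p = 0.000212, 4.71e-05 and 2.18e-05). CecA1 and CecA2 were 9.64-fold and 10.3-fold lower over the 3 ages, and their arms did not overlap at any age.

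By age, 3 of the 10 genes were called lower at day 18 (AttB, CecA2 and CecC; 10.2% of all genes), 10 at day 20 (9.79%) and 10 at day 22 (16.4%). The arms did not overlap for 7 genes at day 18 (23.7% of all genes were lower without overlap), for 10 at day 20 (25.2%) and for 10 at day 22 (17.9%). The day 18 count ranged between 1 and 5 when 1 library was left out. It was 1 without the second or the third mHTT library or any control library of that age, and 5 without the second or the third control library at day 22. CecA2 at day 18 lay at the threshold (adjusted p = 0.0496) and lost its call in 18 of 28 alternatives. The counts of 10 at day 20, at day 22 and over the 3 ages were the same in each of the 18 fits that left out 1 library. An exact permutation test of the arms within ages gave 2-sided p-values between 0.00025, the smallest this design allows, and 0.003 for the 10 genes.

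**Figure D2:**
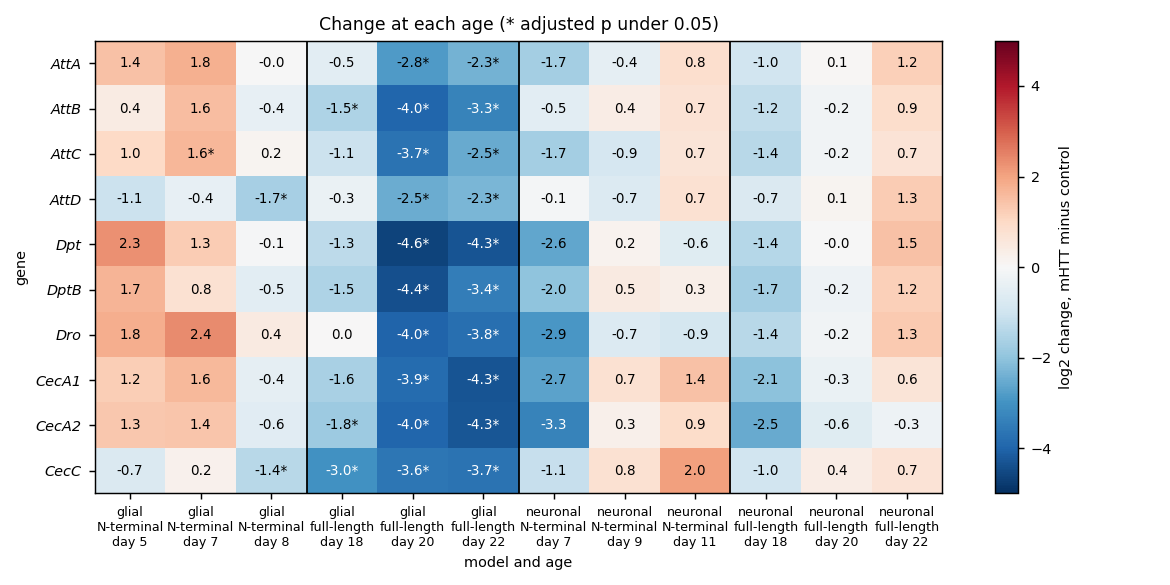
Log2 change (mHTT minus control) of each peptide gene (rows) in each model at each age in days (columns), with values printed to 1 decimal and an asterisk for an adjusted p under 0.05. All 10 genes are marked in the glial full-length model at days 20 and 22, and no gene is marked in either neuronal model.

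The libraries of this model carried 2 label prefixes whose meaning the labels do not state, and these were unevenly spread over the arms (H57777 in 3 mHTT and 6 control libraries, H57779 in 6 and 3; 8 libraries of each could enter a fit within 1 prefix). Within H57779, at days 20 and 22, all 10 genes were called lower (25.2% of all genes tested) with a median of -4.62, against -0.02 over all genes. Within H57777, at days 18 and 22, 6 were called lower (AttB, Dpt, DptB, CecA1, CecA2 and CecC; 6.23% of all genes) and the median was -1.64, against -0.05 over all genes. The prefixes shared day 22. There, Dpt under H57777 was 2778 in the mHTT library, against 32474 and 11666 in the controls. Under H57779 it was 912 and 1316 in the mHTT libraries, against 68949 in the control. The difference between prefixes was not tested.

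Markers of cell types that make or carry these peptides moved with the same comparison. Summed signal of 9 head fat body markers, yolk genes aside, was 351125 to 606046 in glial full-length mHTT heads and 122057 to 250801 in controls. The sum of 9 haemocyte markers was 14488 to 19810 in mHTT heads and 8863 to 12444 in controls. Both sums were higher in mHTT heads. The sum of 12 gut markers was 317 to 1100 in mHTT heads and 1012 to 90682 in controls, so that the arms nearly separated, with lower values in mHTT heads. Of the 12, 1 was at 0 in all mHTT libraries at day 20 and 1 in all controls at day 18. Glial markers summed to 27265 to 32844 in mHTT heads and 29735 to 39617 in controls. The part of the fat body, haemocyte, gut and glial markers in the peptide result was not tested.

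With the N-terminal fragment in glia, at 5 to 8 days, 5 of the 10 peptide genes were called over the ages. AttA, AttC and Dro rose (3 of 10, against 20.4% of the 10358 genes tested) and AttD and CecC fell (2 of 10, against 12.1%), counts near the shares over all genes. The median change of the 10 genes was 0.77, against 0.06 over all genes tested. The medians at days 5, 7 and 8 were 1.29, 1.47 and -0.42, and at day 8 only AttD and CecC were called, both lower.

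Dro showed the largest rise. At day 5 its signals were 137, 942 and 148 in the mHTT libraries, against 28.0, 103 and 147 in the controls. At day 7 they were 12566, 12921 and 2845 in the mHTT libraries, against 1302, 721 and 3701 in the controls, and at day 8 514, 597 and 277 in the mHTT libraries, against 128, 420.0 and 644 in the controls. The first 2 mHTT libraries at day 7 were far above all others of the model, while the arms overlapped at each age. In the mean of the ages Dro was 2.89-fold higher (1.53, SE 0.51, adjusted p = 0.0299, exact permutation p = 0.0198).

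AttC had signals of 1564, 3482 and 1424 in the mHTT libraries, against 790.4, 1080.4 and 1117 in the controls at day 5. At day 7 they were 15612, 32192 and 10322 in the mHTT libraries, against 4865, 3202 and 10827 in the controls. The arms did not overlap at day 5 and overlapped narrowly at day 7. At day 7 AttC was the single peptide gene called (1.65, adjusted p = 0.0485, with 11.2% of all genes called higher). AttA, at day 7, had signals of 1853, 6212 and 1115 in the mHTT libraries, against 525, 617 and 983 in the controls, with no overlap. As means of the ages, the changes were 1.07 (SE 0.37, adjusted p = 0.0365) for AttA and 0.94 (SE 0.31, adjusted p = 0.0325) for AttC.

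AttD and CecC fell over the ages and at day 8. AttD had signals of 60.5, 77.3 and 50.7 in the mHTT libraries, against 123, 126 and 144 in the controls at day 5, and of 48.1, 49.6 and 52.5 in the mHTT libraries, against 124, 172 and 197 in the controls at day 8. All mHTT libraries were below all controls at both ages, and at day 8 AttD fell by 1.67 (adjusted p = 0.0237). CecC had signals of 161, 135 and 104 in the mHTT libraries, against 214, 435 and 439.9 in the controls at day 8, again without overlap, and fell by 1.39 (adjusted p = 0.00968). At day 7 AttD had signals of 144, 256 and 40.1 in the mHTT libraries, against 137, 124 and 201 in the controls. CecC then had 517, 479 and 263 in the mHTT libraries, against 369, 281 and 407 in the controls. The arms overlapped for both genes at that age, and neither change was called (-0.39 for AttD and 0.21 for CecC, adjusted p = 0.593 and 0.702). At day 8 the other 8 genes had changes between -0.56 (CecA2) and 0.43 (Dro), none called, and 4.92% of all genes were called lower.

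At day 5 none of the 10 was called in the limma fit, while 13.5% of all genes were called. Of the 10, 5 had an unadjusted p under 0.05, a limit at which the share of all genes was not taken. The arms did not overlap for 6 genes that were higher in mHTT heads (AttA, AttC, Dpt, DptB, CecA1 and CecA2; 29.1% of all genes) and for 2 that were lower (AttD and CecC; 15.2%). At day 7, 4 genes were higher without overlap (AttA, AttB, CecA1 and CecA2; 18.5%). At day 8, 2 were lower without overlap (AttD and CecC; 12.4%).

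The calls depended on single libraries. The count over the 3 ages was 5 with all libraries and between 2 and 6 when 1 was left out. It was 2 without the second mHTT library at day 5, the second at day 7 or the first at day 8, and likewise 2 without the first control at day 5, the first or second at day 7 or the first at day 8. Leaving out the second mHTT library at day 8 gave 3. The day 7 count was 5 without the third mHTT library of that age and 2 without the first control at day 8. It was 1 without the second mHTT library at day 5, the first at day 7, the third control at day 7 or the third at day 8, and 0 without any of the other 12. Without the third mHTT library at day 7, 1 gene was also called at day 5. AttC at day 7 lost its call in 20 of 28 alternatives, with adjusted p-values between 0.0235 and 0.187. The falls of AttD and CecC in the mean of the ages were called in each fit without 1 library. At day 8 both fell below the threshold without the second or the third control library (0 called), and AttD also without any of the 3 mHTT libraries (1 called). Haemocyte markers summed to 20893 to 24478 in glial N-terminal mHTT heads and 15569 to 18876 in controls, while fat body markers without yolk genes overlapped (147143 to 256522 in mHTT heads, 170544 to 321031 in controls). Glial markers were lower, at 21441 to 24776 in mHTT heads and 34877 to 42621 in controls. The part of haemocytes and glia in these changes was not tested.

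**Figure D3:**
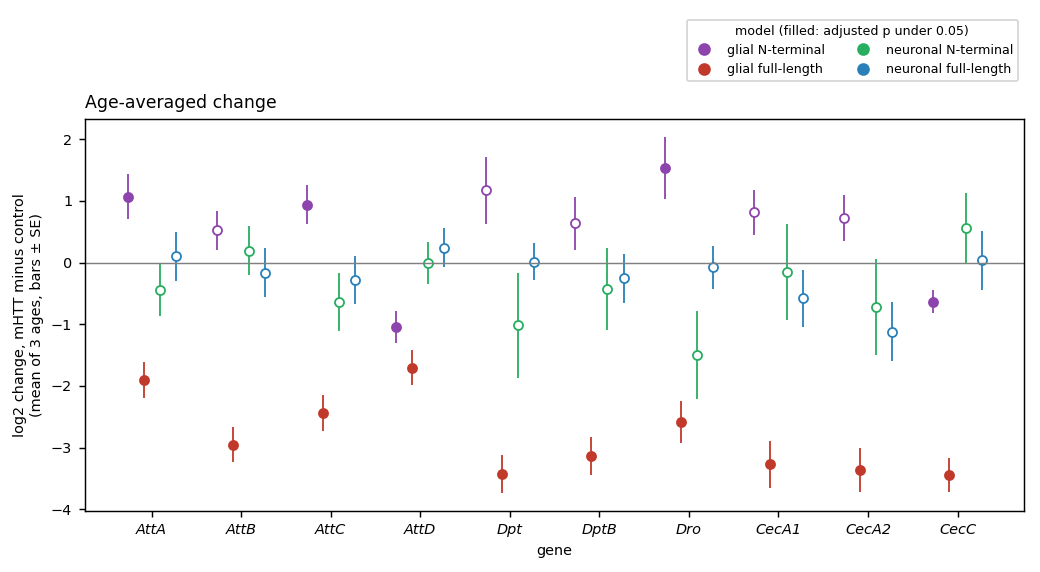
Log2 change (mHTT minus control, mean of 3 ages) of each peptide gene in the 4 models, with bars of ± SE and filled points for an adjusted p under 0.05. The glial full-length points lie between -1.70 and -3.44, the glial N-terminal points between -1.04 and 1.53, and the neuronal points, all open, between -1.50 and 0.55.

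In heads with the N-terminal fragment in neurons no peptide gene was called, either over the 3 ages or at any 1 age. Over the ages 13.6% of the 10162 genes tested were called, and 1.98%, 4.32% and 7.77% at days 7, 9 and 11. The changes over the ages lay between -1.50 (Dro) and 0.55 (CecC), with a median of -0.44. None of the 10 had an unadjusted p under 0.05 in that contrast, and none passed 0.05 in the exact permutation test. The interval was wide, and for Dro the change was -1.50 (95% interval -3.04 to 0.04).

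The levels at day 7 were low in mHTT heads. Dro had signals of 58.0, 37.2 and 389 in the mHTT libraries, against 532, 1281 and 566 in the controls. CecA2 had 17.7, 20.5 and 98.7 in the mHTT libraries, against 223, 364 and 504 in the controls. In both genes the third mHTT library was nearest to the controls, and the arms did not overlap. In all, 5 genes were lower without overlap at this age (AttA, Dro, CecA1, CecA2 and CecC; 13.7% of all genes), with changes between -1.14 and -3.33. The spread in this model was wide: CecA2 changed by -3.33 (95% interval -6.20 to -0.46) with an adjusted p of 0.374, and in a fit of the 6 libraries of that age alone 3 genes were called (AttA, CecA1 and CecA2, all lower, against 3.75% of the 9886 genes in that fit).

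At days 9 and 11 the arms overlapped for all 10 genes, while 23.7% of all genes were higher and 19.8% lower without overlap at day 9, and 12.0% and 17.6% at day 11. Single libraries were high in each. At day 9 Dpt had signals of 5254, 295 and 264 in the mHTT libraries, against 142, 764 and 2667 in the controls. At day 11 CecC had 299, 51.8 and 226 in the mHTT libraries, against 9.77, 186 and 25.2 in the controls. The high Dpt value belonged to the first mHTT library, while gut markers were high in the second (44006), and their part was not tested. The high control value of CecC was that of the library that stood apart in sum and zeros. Without that second control library, 1 gene was called at day 11 (CecC, higher). Fat body markers without yolk genes summed to 178121 to 330925 in mHTT heads and 311509 to 455258 in controls, and their part was not tested.

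Full-length mHTT in neurons gave no called change in any of the 10 genes, over the ages (18.9% of the 10538 genes tested were called) or at days 18 (9.20%), 20 (4.14%) and 22 (7.65%). The median change over the ages was -0.12. CecA2 had the largest, -1.12 (95% interval -2.15 to -0.09), with an adjusted p of 0.127 and an exact permutation p of 0.0315. For Dpt, the gene with the second largest fall in the glial full-length model, the change was 0.01 (95% interval -0.63 to 0.66).

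The sign of the estimates was not the same at the 3 ages. Dpt had signals of 1812, 352 and 1853 in the mHTT libraries, against 4382, 2133 and 2412 in the controls at day 18. At day 20 they were 2477, 1789 and 1115 in the mHTT libraries, against 1739, 1212 and 2463 in the controls, and at day 22 3295, 4517 and 4207 in the mHTT libraries, against 1208, 1213 and 1970.0 in the controls. All mHTT libraries were below the controls at day 18, the arms were mixed at day 20, and all mHTT libraries were above the controls at day 22. The estimates were -1.42, -0.02 and 1.48 (adjusted p = 0.111, 0.991 and 0.102), and the F test of equal change gave an unadjusted p of 0.00522 and an adjusted p of 0.157, with 0.731% of all genes called in that test.

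At day 18, 2 genes were lower without overlap (Dpt and DptB; 19.1% of all genes) and 5 had an unadjusted p under 0.05. At day 22, 6 were higher without overlap (AttA, AttB, AttD, Dpt, DptB and Dro; 9.39% of all genes) and 3 had an unadjusted p under 0.05. For the unadjusted limit the share of all genes was not taken at either age. DptB, for instance, had signals of 5850.1, 9417 and 9942 in the mHTT libraries, against 3977, 2521 and 4720.4 in the controls at day 22. The second mHTT library at day 18 was low for all 10 genes, with a Dro signal of 156 beside 950.4 and 609 in the other mHTT libraries of that age. Without the third mHTT library at day 18, 2 genes were called at that age, and without the first at day 22, 1 gene. Without the second mHTT library at day 18, 2 genes were called at day 22, and without the third at day 18, 1 gene. Within label prefix H57779 (6 mHTT and 5 control libraries) the changes over the ages lay between -1.94 (CecA2) and -0.23 (Dpt). The median of the 10 genes there was -0.67, against 0.00 over all genes. The only mHTT library of that prefix at day 18 was the second, the low one, and its only control at day 20 was the second. Calls are therefore not given for it. Within H57777 (3 and 2 libraries, days 18 and 22) the changes lay between -1.21 (CecA2) and 0.78 (AttD). The median there was -0.07, against -0.01 over all genes. That prefix had only the first control at day 18, and only the first mHTT library and the second control at day 22. This mHTT library lay far from its group, and calls are not given. Gut markers reached 111415 in 1 mHTT library and 45367 and 12802 in 2 control libraries at day 22, and their part was not tested.

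The change in the peptide genes differed between models. With full-length mHTT, the neuronal minus the glial change was positive for all 10 genes, between 1.94 (AttD) and 3.48 (CecC), and all 10 differences were called in the fit of all 72 libraries, in which 9.91% of 10976 genes were called in this direction. For Dpt the difference was 3.44 (SE 0.83, adjusted p = 0.00118). The drivers of the full-length models were studied at 29 °C and 28 °C, so temperature and driver cannot be told apart here. Within the glial driver, the N-terminal minus the full-length change was positive and called for 9 of 10 genes (15.6% of all genes), all but AttD (0.66, adjusted p = 0.32), which was lower in both glial models. The 2 glial models were sampled at different ages, so construct and age cannot be told apart.

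With the N-terminal fragment, the neuronal minus the glial change was negative and called for AttA, AttC, Dpt and Dro (4 of 10, against 18.6% of all genes). Dro differed most, by -3.03 (SE 0.76, adjusted p = 0.00154). At day 7, the one age that both N-terminal models shared, 5 genes differed (AttA, AttC, Dro, CecA1 and CecA2; 4.60% of all genes), and Dro by -5.28 (SE 1.31, adjusted p = 0.0043). The count over the ages dropped to 1 without the second glial mHTT library at day 5, the second glial control at day 7, the first glial control at day 8, the second neuronal mHTT library at day 7, or the third neuronal mHTT or control library at day 9. It was 2 without the first glial mHTT library at day 8, the first glial control at day 5 or at day 7, the first neuronal mHTT library at day 7, the second at day 11 or the second neuronal control at day 11. The count at day 7 was 1 without the second glial mHTT library of that age, 2 without the first or second neuronal mHTT library, and 3 without the first or second glial control. Between the neuronal models no peptide gene differed (15.6% of all genes did, and none of the 10 had an unadjusted p under 0.05). The interval of their difference was wide for Dro, -1.42 (95% interval -2.94 to 0.10).

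Controls also differed by age. In glial driver controls all 10 genes were higher at days 18 to 22 than at days 5 to 8 (13.9% of all genes), by 1.59 (AttD) to 4.66 (Dpt). Dpt averaged 37696 in glial controls at day 22 and 192 at day 5. In neuronal driver controls 7 were higher at days 18 to 22 than at days 7 to 11 (15.7% of all genes), by 1.20 (AttA) to 2.08 (CecA1), and AttC, AttD and Dro were not called (0.99, 0.56 and 0.92). The older neuronal controls were also kept 1 °C warmer, so age and temperature cannot be told apart there. Without the first neuronal control library at day 18 the neuronal count was 4. The glial count was 10 in all 72 fits without 1 library.

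The course in young glial controls was not steady. On day 5 their AttC signals were 790.4, 1080.4 and 1117. On day 7 they were 4865, 3202 and 10827, and on day 8 1098, 3407 and 4448. The highest values of the 3 ages were at day 7, in controls and in mHTT heads alike, where AttC reached 15612, 32192 and 10322. Day 7 was thus high in both arms.

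Replicates scattered widely. The within-group SD of the peptide genes on the log2 scale was 0.70 (AttD) to 1.27 (Dpt), against a median of 0.24 over 10976 genes, and placed them between the 88.5th and the 95.9th percentile. The genes scattered together. In 18 of the 24 groups a single library was the highest for at least 8 of the 10 genes, and in 18 a single library was the lowest for at least 8. In neuronal N-terminal mHTT heads at day 9, for example, the first library was highest for 10 of 10, with AttD at 126 beside 22.7 and 25.2. Because the genes vary together between libraries, the 10 are not 10 independent observations of a model.

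The balance of 2 genes was compared library by library in the near-identical pairs, and also between the neighbours Dpt and DptB. This comparison was chosen after the values were seen. The AttA to AttB ratio was 0.902 to 1.40 in glial full-length mHTT heads and 0.487 to 0.609 in controls, with no overlap over the 9 libraries of each arm. An exact permutation test of the log2 ratio within ages gave a 2-sided p of 0.00025, the smallest the design allows, and 0.0015 after adjustment over 12 ratio tests. The ratio was also higher in glial N-terminal mHTT heads (geometric mean 0.535 against 0.367 in controls, exact p = 0.00025) and in neuronal full-length mHTT heads (1.47 against 1.22, exact p = 0.00125). It was lower in neuronal N-terminal mHTT heads (0.810 against 1.26, exact p = 0.0055). The ratio was 0.229 to 0.609 in controls of the repo driver and 0.891 to 1.70 in controls of the elav driver, a difference that was not tested.

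The CecA1 to CecA2 ratio was 1.07 in neuronal N-terminal mHTT heads and 0.718 in controls (geometric means, exact p = 0.0005, adjusted p = 0.002), and 1.19 in neuronal full-length mHTT heads and 0.816 in controls (exact p = 0.00175, adjusted p = 0.0042). In the glial models it was 0.794 and 0.746 (N-terminal mHTT and control, exact p = 0.520) and 0.954 and 0.897 (full-length mHTT and control, exact p = 0.257). The Dpt to DptB ratio was 0.575 in glial N-terminal mHTT heads and 0.398 in controls (exact p = 0.0105, adjusted p = 0.018). In glial full-length heads it was 0.70 with mHTT and 0.858 in controls (exact p = 0.0613). For the neuronal N-terminal model it was 0.254 in mHTT heads and 0.383 in controls (exact p = 0.068), and for the neuronal full-length model 0.435 in mHTT heads and 0.360 in controls (exact p = 0.123). Differences in these ratios between models were not tested. Ratios of the near-identical genes (AttA to AttB and CecA1 to CecA2) depend on how reads were assigned. Differences between strains in the genes of any pair were not tested.

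**Figure D4:**
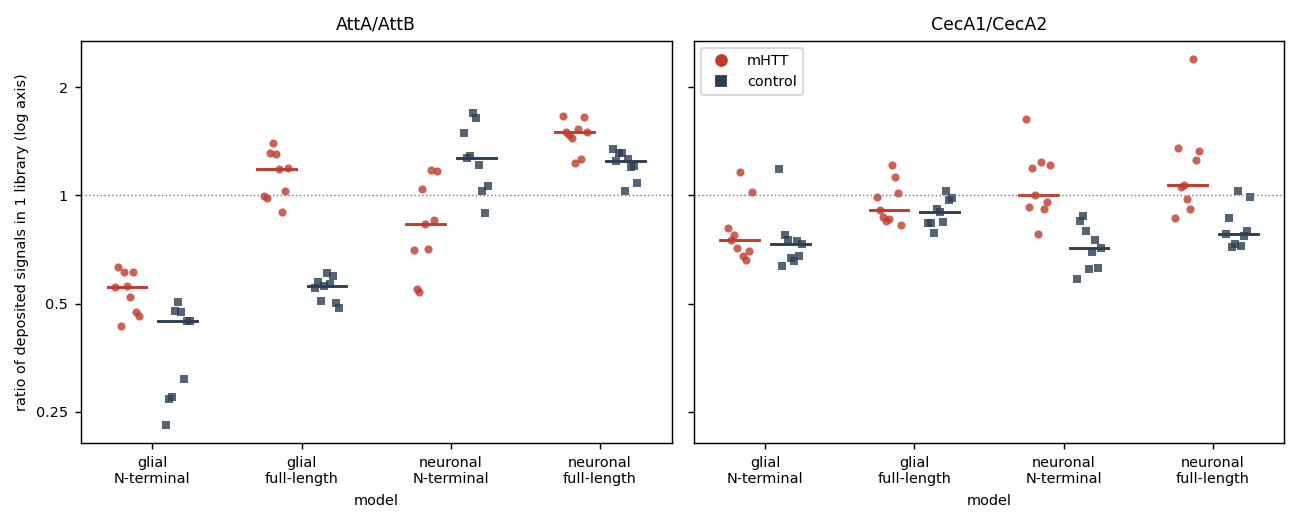
Ratio of AttA to AttB (left) and of CecA1 to CecA2 (right) in single libraries (log axis), by model, with mHTT circles left of control squares and bars at the medians of 9. The AttA to AttB ratio separates the arms completely in the glial full-length model, at 0.902 to 1.40 in mHTT heads and 0.487 to 0.609 in controls.

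The genes whose pattern over the 24 group means was most like the mean of the peptide genes included a further peptide gene and an Imd inhibitor. The highest Pearson correlation outside the set was that of Mtk (0.91), which encodes the antifungal and antibacterial peptide metchnikowin. IM18 and CG10332, which had the same values in the deposited table, followed (0.90), then PGRP-SC2 (0.83), which is on the list of Imd inhibitors, and CG43236, now named Mtkl (0.81). Within the set, the correlation with the mean was lowest for AttD (0.76) and highest for CecA1 (0.99). These correlations describe group means that share libraries with the mean they were set against.

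Other genes of the response were read from lists of Imd signalling genes, Imd inhibitors, other induced effectors and Toll pathway genes. In the glial full-length model, 2 of 14 other effectors tested were higher and 8 lower over the 3 ages (median -0.46, against -0.04 over all genes). Over all genes tested in this model, 19.3% were called higher and 25.1% lower. CecB, a further cecropin, fell by 4.62, with signals of 2.42, 2.60 and 4.52 in the mHTT libraries, against 65.3, 280.3 and 45.5 in the controls at day 20. Mtk fell by 2.33, edin, a secreted peptide induced by infection, fell by 2.21, and Drs, the antifungal peptide drosomycin and a standard readout of the Toll pathway, fell by 0.97 (adjusted p = 0.0426). Def, which encodes the peptide defensin, was higher instead, by 0.65 (SE 0.14, adjusted p = 0.000993). Its signals at day 22 were 901, 1192 and 1143 in the mHTT libraries, against 333, 459 and 492 in the controls, with all mHTT libraries above all controls.

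Of 16 Imd signalling genes in this model, 4 were higher and 6 lower, with a median of -0.03. Rel, which encodes Relish, had signals of 5718, 5366 and 4514 in the mHTT libraries, against 11609, 11985 and 10286 in the controls at day 18. At day 20 they were 3216, 3336 and 3214 in the mHTT libraries, against 5365, 6476 and 4812 in the controls, and at day 22 3643, 3549 and 4211 in the mHTT libraries, against 6457, 8625 and 7782 in the controls. Every mHTT library was below every control of its age, and Rel fell by 0.96 (SE 0.07, adjusted p = 1.37e-08). Charon, which encodes an IkappaB-like protein that binds Relish, changed by -1.09, and key, the regulatory subunit of the IKK complex, by -0.52. The adaptor imd was higher (0.35), and the receptors PGRP-LC and PGRP-LE were not called (-0.06 and -0.03). Of 12 inhibitors tested, 1 was higher and 5 lower, among them PGRP-SC2 (-1.55), PGRP-LB (-0.61) and pirk (-0.61). Of 14 Toll pathway genes, 7 were higher and 4 lower (median 0.13). The largest changes there were in the pattern recognition protein GNBP3 (0.96) and the proteases psh (0.64) and modSP (0.59).

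In the glial N-terminal model, 6 of 14 other effectors were higher and 1 lower (median 0.54), against 20.4% and 12.1% of all genes. Among them edin rose by 1.53 and BomS1, a Bomanin peptide of the Toll response, by 0.81, while Listericin fell by 0.88. Drs had signals of 24138, 23320.3 and 866 in the mHTT libraries, against 396, 3216 and 476 in the controls at day 7, where 2 mHTT libraries and 1 control were high, and it was not called over the ages (1.45, adjusted p = 0.0952). CecB changed by -0.66 and Def by -0.04, neither called. Of the 16 signalling genes 5 were higher and 2 lower, and the largest change in size was -0.30, in Rel (adjusted p = 0.00798). Of 11 inhibitors tested 2 were higher and none lower (POSH 0.18, casp 0.10). Of 14 Toll pathway genes 3 were higher and 1 lower, led by spz, the ligand of Toll (0.59).

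In the neuronal N-terminal model 6.03% of all genes were called higher and 7.53% lower. There, 2 of 14 other effectors were higher (CecB 2.51, BomBc1 1.24) and 2 lower (edin -2.90, PGRP-SB1 -1.14). CecB had signals of 131, 11.6 and 131 in the mHTT libraries, against 2.57, 0.00 and 0.00 in the controls at day 11, so its rise was against controls that were listed at or near 0. One of 16 signalling genes was called, PGRP-LC (-0.30), and none of 11 inhibitors. Of 14 Toll pathway genes 1 was higher (dl 0.33) and 1 lower (psh -0.36). In the neuronal full-length model 9.40% of all genes were called higher and 9.54% lower, and 2 of 14 other effectors were higher, BomBc1 (1.09) and Def (0.60), and 3 lower, among them Mtk (-0.95) and Listericin (-0.73). Of the 16 signalling genes none was higher and 3 were lower, Charon (-0.66), Rel (-0.40) and key (-0.34). None of 12 inhibitors was called, and of 14 Toll pathway genes 2 were higher and 3 lower. Rel was thus lower in 3 of the 4 models. These included the neuronal full-length model, where no peptide gene was called, and the glial N-terminal model, where 3 were higher and 2 lower. The relation of Rel to the peptide genes was not tested.

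**Figure D5:**
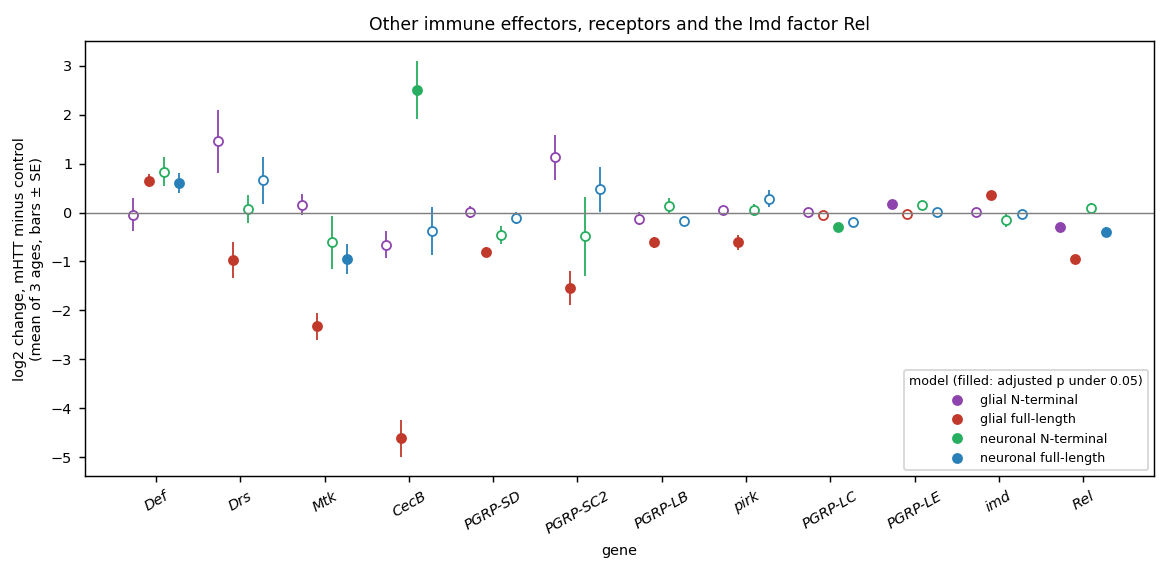
Log2 change (mHTT minus control, mean of 3 ages, bars ± SE) of 12 other immune genes in the 4 models, with filled points for an adjusted p under 0.05. In the glial full-length model CecB (-4.62) and Mtk (-2.33) fell with the peptide genes while Def rose (0.65), and Rel was lower by 0.96.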

How the data were processed

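Per the labels' protocols, total RNA from 50 heads per library went into a stranded poly(A) library kit. Per the submitters' processing notes, CASAVA 1.8.2, Bowtie 0.12.0 and RSEM 1.1.19 were used with the dm3 genome build. The annotation and the strand setting are not given in the sources used here. The deposited table gives 1 signal value per gene and library, and its upper quartile is 1000 in each library, so the authors deposited normalised values. Between 92.1% and 95.5% of low values fell on whole multiples of 1 step (within 0.02 steps), too few to treat the table as reads, so the step gave only the estimated depth, and no count test was run. No build-matched genome was used, so no coordinates or sequences are given.

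The titles of neuronal full-length mHTT libraries named other ages than their age field, description and growth protocol, which agreed on 18, 20 and 22 days and were used. Values were analysed as log2(signal + 1) in R 4.3.3 with limma 3.58.1, using a trended moderated variance, and the added 1 makes changes of low genes appear smaller. A gene entered a fit if 3 or more of its libraries had a signal of 10 or more, with Benjamini-Hochberg adjustment over all of them and calls at an adjusted p under 0.05. Each model was fitted on its 18 libraries as 6 group means, and differences between models on all 72 libraries. The fits were tested on simulated data. An exact 2-sided permutation test moved arm labels within ages (8000 arrangements, smallest p 0.00025). The peptide genes, the pathway and marker lists and the tests were chosen with earlier results of these data known. Named besides the 10 were, per list and model, the 3 called genes with the largest change, 10 fixed genes (Rel, PGRP-LC, PGRP-LE, imd, pirk, PGRP-LB, Def, Drs, Mtk and CecB), and the 5 genes most alike with a mean of at least 100. PGRP-SB1 was named beyond this, as was each pair ratio, after values were seen. PGRP-SD, shown in the figure of other immune genes, also lies outside this rule. Of the listed genes, 17 were found under another symbol. IBIN and ppn were not used here. Alternatives covered pseudocount, filter, rescaling, replicate block, label prefix, array weights, summed pairs, the libraries in the fit and each library left out.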

Additional observations from a re-analysis of the deposited data

Results flagged for a closer look

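The following differences between models were singled out because the difference itself passed the test in the fit of all 72 libraries (limma, adjusted p under 0.05). Values are on the log2(signal + 1) scale, averaged over the ages unless a day is given.

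For full-length mHTT the neuronal minus the glial change was 2.01 for AttA, 2.79 for AttB, 2.15 for AttC and 1.94 for AttD. It was 3.44 for Dpt, 2.87 for DptB, 2.51 for Dro, 2.69 for CecA1, 2.24 for CecA2 and 3.48 for CecC. The CecA2 difference lost its call without any 1 of 12 libraries. Within the glial driver, the N-terminal minus the full-length change was 2.97 for AttA, 3.48 for AttB, 3.37 for AttC, 4.59 for Dpt and 3.77 for DptB. It was 4.12 for Dro, 4.08 for CecA1, 4.08 for CecA2 and 2.81 for CecC.

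For the N-terminal fragment the neuronal minus the glial change was -1.51 for AttA, -1.57 for AttC, -2.18 for Dpt and -3.03 for Dro. At day 7 it was -3.49 for AttA, -3.35 for AttC, -5.28 for Dro, -4.30 for CecA1 and -4.71 for CecA2. A difference between ages within a single model was flagged as well, from the fit of that model's 18 libraries. In the glial full-length model, Dro was the gene whose change differed between the 3 ages (F test, adjusted p = 0.0384). Without single libraries, 0 to 7 peptide genes were called in that test.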

How the results depend on the processing

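All counts here are of the 10 peptide genes called, and a change of direction was counted only where a call was made in either fit. No such change occurred. Shares of all genes called under the alternatives are not given here, so a count may have moved along with calls over all genes. In the glial full-length model the counts of 10 lower at day 20 and over the 3 ages were the same under every alternative run on all prefixes, and at day 22 the count was 8 with the 6 libraries of the age alone (AttA and AttC not called). Median-ratio rescaling moved the median of all genes by less than 0.1.

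Glial N-terminal, day 7 (1 called): 0 with no filter, median-ratio rescaling, the label prefix as covariate, array weights, all 72 libraries in the fit or the 6 of the age. Day 5 (0): 2 with array weights and 4 with the 6 libraries of the age. Day 8 (2): 0 with all 72 libraries. Over the 3 ages (5): 3 with rescaling, 3 with all 72 libraries and 3 within prefix H57779. Glial full-length, day 18 (3): 6 with array weights, 1 with near-identical pairs summed, 1 with all 72 libraries and 8 with the 6 of the age. Fits of the glial full-length model within 1 prefix also left groups of 1 library, so their calls are not counted. Difference between ages (1): 0 with no filter, 0 with all 72 libraries and 7 with array weights. Neuronal N-terminal, day 11 (0): 1 with the prefix as covariate, array weights, all 72 libraries or without the farthest library. Day 7 (0): 1 with all 72 libraries and 3 with the 6 of the age. Over the 3 ages (0): 1 with array weights or all 72 libraries. Difference between ages (0): 1 with array weights. Neuronal full-length, day 18 (0): 1 with the prefix as covariate, array weights or without the farthest library. Day 22 (0): 2 with array weights. Difference between ages (0): 1 with array weights. Fits of this model within 1 prefix left groups of 1 library, so their calls are not counted. N-terminal, neuronal minus glial (4): 2 with rescaling. The fits within 1 prefix were added after the data were seen. Some of these fits used fewer libraries, and the cause of the shifts was not tested.

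Without 1 library at a time, counts ranged as follows. Glial N-terminal gave 0 to 1 at day 5, 0 to 5 at day 7, 0 to 2 at day 8, 2 to 6 over the 3 ages and 0 to 1 for a difference between ages. Glial full-length gave 1 to 5 at day 18 and 0 to 7 for a difference between ages. Neuronal N-terminal gave 0 to 1 at day 11, and neuronal full-length 0 to 2 at day 18 and 0 to 2 at day 22. Between models the range was 9 to 10 for full-length, 1 to 4 for N-terminal and 1 to 7 for N-terminal at day 7. For neuronal controls with age it was 4 to 9.

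Replicate numbers did not pair the samples: residuals of same-numbered libraries correlated by over 0.1 in 5 of 36 pairs (range -0.55 to 0.47), and 9 of 36 mHTT libraries were closest to the control of their own number. With the replicate number as a block the count for a difference between ages in the glial full-length model was 0, CecA2 at day 18 lost its call, and no other call changed.

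Depth was similar across libraries, and its estimates cover counting error only. With 3 libraries per group and within-group SDs of 0.70 to 1.27, the smallest change called at a single age was -1.39 (CecC, glial N-terminal, day 8), so smaller changes may have gone undetected.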
